A study of Oryctolagus cuniculus with 6 samples.

Results

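Messenger RNA of 6 regulators of the step from G1 to S phase was examined in smooth muscle cells of the rabbit basilar artery: the cyclins CCND1, CCNE1 and CCNE2, the transcription factor E2F1, the replication licensing factor CDC6, and CDKN1A, which encodes the inhibitor p21. Members were the probes that the array files label with one of these symbols or describe with the gene's full name. This gave 9 of 43603 probes, for 5 of the 6 genes, and E2F1 had no such probe. All rabbits were female New Zealand White. In the ligated group both common carotid arteries were tied to raise vascular flow, and in the sham group the same vessels were exposed but not tied. The labels give 3 rabbits for each group. Arteries were taken on day 5, perfused with elastase and collagenase, and cells were freed by trituration. The labels describe no sorting of the cells. Age is not given, and the labels do not say whether an array holds RNA of 1 rabbit or of several. The p-values therefore measure the spread between these arrays. One-colour rabbit oligonucleotide arrays were read, 3 per group.

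Cyclin D with CDK4 or CDK6 starts to phosphorylate the retinoblastoma protein, and cyclin E with CDK2 completes this, which frees E2F factors to switch on genes of DNA synthesis. CDC6 loads the MCM helicase on replication origins in G1. The protein p21 binds cyclin-CDK complexes and the PCNA clamp and is induced by DNA damage, by serum and by cytokines. Smooth muscle cells of a grown artery are mostly outside the cell cycle and can re-enter it after injury or a change in flow.

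Members that had a probe were read by short probes, and the sequences show what each probe can and cannot tell. The CDKN1A probe and the probe that the files describe as cyclin D1 both end at the end of the reading frame, with the stop codon in capitals:
CDKN1A probe: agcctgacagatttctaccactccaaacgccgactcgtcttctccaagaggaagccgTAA
cyclin D probe: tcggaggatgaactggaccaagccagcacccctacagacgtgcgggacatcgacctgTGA
The CDKN1A probe lies on chromosome 12 of oryCun2, the build of the array files, from 26618363 to 26619857 on the plus strand. That span of 1495 bases for a 60-base probe places it across a splice junction. The cyclin D probe lies on chromosome 8 from 30406864 to 30406923 on the plus strand. An annotation of oryCun2 was not used here.

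The data went against the name of the cyclin D probe. The transcript accession that the array files give for it belongs to CCND2 in the RefSeq table of rabbit genes (assembly mOryCun1.1), not to CCND1. On the arrays' own map the probe lies between PARP11 and CRACR2A on one side and TIGAR, FGF6 and FERRY3 on the other. These are the genes that flank CCND2 in RefSeq, whereas CCND1 is flanked by LTO1, FGF19, SMIM38 and TPCN2. The probe is therefore called the cyclin D probe below, and CCND1 itself was read by no member probe.

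CCNE1 had 3 probes with no position in the files. The first 2 of them share 30 bases, in capitals, so they are not separate readings of the transcript:
CCNE1 probe 1: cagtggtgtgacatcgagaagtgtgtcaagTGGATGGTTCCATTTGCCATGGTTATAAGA
CCNE1 probe 2: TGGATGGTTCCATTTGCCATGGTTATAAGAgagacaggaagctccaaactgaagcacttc
The longest stretch shared between any CCNE1 probe and any CCNE2 probe was 7 bases. The 3 CCNE2 probes lie on chromosome 3 on the minus strand, at 110487014 to 110487073, 110486613 to 110487013, and 110486553 to 110486612. The CDC6 probe lies on chromosome 19 from 41467117 to 41467176 on the plus strand.

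Between 58.7% and 63.7% of probes were well above background on an array, and no spot was saturated. Signals are given as log2 after subtracting each array's 75th percentile, so 0 is that percentile. The sham arrays shared slide 1 and the ligated arrays shared slide 2, so an effect of the slide and an effect of ligation cannot be told apart. After scaling, the spike-in controls had a median ligated minus sham difference of -0.81. Of the 10 controls 3 were lower on every ligated array than on any sham array, and 0 were higher. No fit was scaled to these controls, so changes on their scale were not tested. Sham 2 and sham 3 stood apart by being alike. Over 3531 genes with several probes, the part of the log2 difference that a gene's probes share had an SD of 0.14 for that pair and at least 0.49 for every other pair of arrays. Whether they hold separate rabbits was not tested. Over 27381 probes the SD of the log2 difference was 0.38 for that pair, and sham 1 was closer to ligated 2 (0.92) than to sham 2 (1.28). In the part that a gene's probes share the order was the reverse. There sham 1 was closer to sham 2 (0.62) than to ligated 2 (0.87). With 3 arrays per group, precision is limited throughout.

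CDKN1A rose in ligated arteries. The 3 sham arrays read 1.22, 1.07 and 1.13 in log2 and the 3 ligated arrays 2.21, 1.92 and 1.88. The groups did not overlap, with a gap of 0.66 between the highest sham and the lowest ligated array, and the spread within each group was small beside the difference. Before scaling, the processed signals of the sham arrays were 517, 435 and 489, and those of the ligated arrays 840, 952 and 579. Mean log2 signal went from 1.14 ± 0.077 for sham to 2.01 ± 0.18 for ligated arteries (SD, n = 3). The log2 change was 0.87 ± 0.18 (SE), with a 95% interval from 0.43 to 1.31, which is a 1.82-fold difference (1.34 to 2.48). The limma adjusted p over all tested probes was 0.0382.

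**Figure D1:**
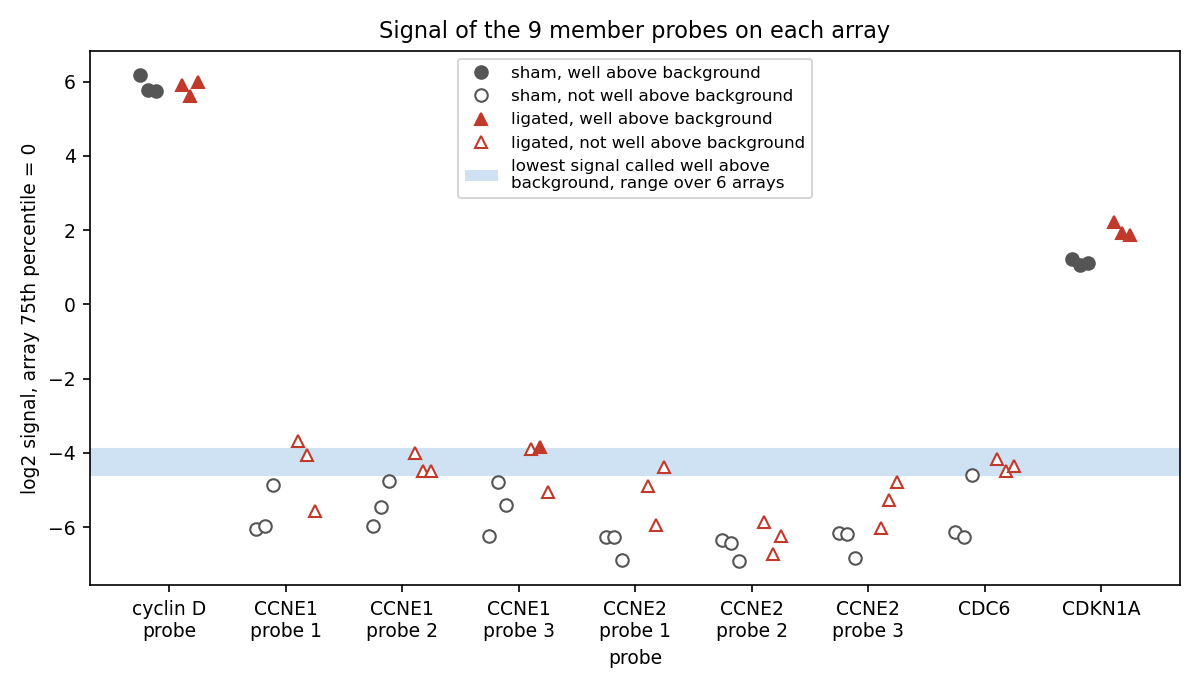
Log2 signal (array 75th percentile at 0) of the 9 member probes on each of the 6 arrays, with sham arrays as circles and ligated arrays as triangles. Filled symbols were well above background and open ones were not. The blue band is the range over arrays of the lowest signal called well above background (-4.58 to -3.89). CDKN1A reads 1.07 to 1.22 in sham and 1.88 to 2.21 in ligated arteries, the cyclin D probe overlaps between groups, and the cyclin E and CDC6 probes lie near or under the band, from -6.91 to -3.67.

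That call was close to its threshold, and 8.35% of all 27410 tested probes passed the same test. With 1 probe per gene, 8.88% of 7576 genes passed, 6.2% as higher and 2.68% as lower. CDKN1A was 1 of 2 member probes tested, and the only one called. Of 470 genes called higher, whose median log2 change was 1.78, 10 had a smaller change than CDKN1A. Groups that did not overlap were common as well, at 35.4% of tested genes, and 17.8% were higher without overlap.

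The direction of the CDKN1A difference was the same under all 19 alternative settings. Of these, 2 are the same fit, since sham 3 alone was scanned on day 2 and a scan-day block removes it. Because the groups did not overlap, fits that left out, averaged or weighted arrays could not turn the sign. Fits that changed only the filter, the variance model or the probe per gene, and the replicate block, kept the change at 0.87. The direction was open only to the background correction, the scaling and the source of the values. The changes ran from 0.55 to 0.95, and the call held in 7 settings. The call ended in each of the 6 fits that left out 1 array. The adjusted p was 0.0580 without sham 1, 0.158 without sham 2 and 0.153 without sham 3. It was 0.0851 without ligated 1, 0.0935 without ligated 2 and 0.0516 without ligated 3. With sham 2 and sham 3 averaged the change was 0.85 and the adjusted p 0.149. The call also ended with normexp at an offset of 50, where the change was 0.55 (adjusted p = 0.789), with median centring (0.67, adjusted p = 0.0926) and with no filter on dim probes (adjusted p = 0.0820). The change itself moved little when an array was left out, from 0.76 to 0.93, and the intervals were wider with fewer arrays.

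**Figure D2:**
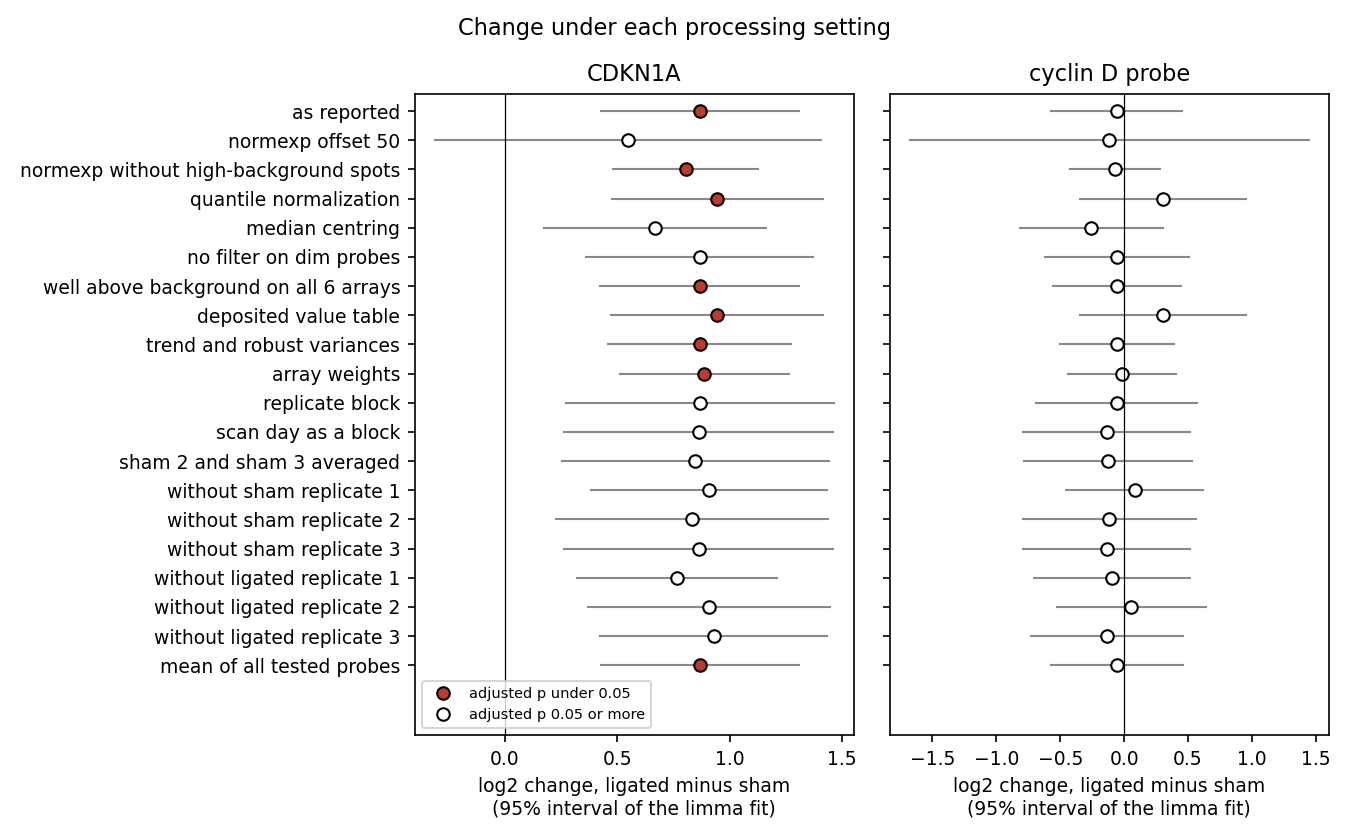
Log2 change (ligated minus sham, horizontal axis) of CDKN1A on the left and of the cyclin D probe on the right, as reported and under each of 19 alternative settings, with 95% intervals of the limma fit. Filled points have an adjusted p under 0.05. Every CDKN1A change lies between 0.55 and 0.95, while the cyclin D probe ranges from -0.26 to 0.31.

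The cyclin D probe showed no difference past the threshold. Sham arrays read 6.18, 5.79 and 5.75 in log2 and ligated arrays 5.92, 5.62 and 6.0, so the groups overlapped. The group means were 5.91 ± 0.24 for sham and 5.85 ± 0.20 for ligated arteries (SD, n = 3). The log2 change was -0.057 ± 0.21 (SE; limma adjusted p = 0.880). The 95% interval ran from -0.57 to 0.46, which is a fold between 0.674 and 1.37. The sign depended on the setting, and it was 0.31 with quantile normalization and with the deposited value table. Without sham 1 it was 0.082 and without ligated 2 it was 0.056. No alternative called it, and the lowest adjusted p was 0.503. The 2 probes were also set against each other within each array, which does not depend on scaling between arrays. CDKN1A minus the cyclin D probe was -4.96, -4.72 and -4.62 in sham and -3.71, -3.70 and -4.12 in ligated arteries. The difference between the group means was 0.92, and the groups did not overlap (exact permutation test, two-sided, p = 0.1, the smallest p that 3 arrays against 3 allow). The planned pairs that involve CCNE1, CCNE2 or CDC6 had no measured level on one side and were not formed, so no adjustment over pairs applied.

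Both cyclin E genes and CDC6 were too dim to test. Cyclin E is the partner of CDK2 at the G1 to S boundary, and its transcripts are present for a short window of the cycle. CCNE1 probe 1 read -6.05, -5.97 and -4.86 in sham and -3.67, -4.05 and -5.56 in ligated arteries, and the groups overlapped. CCNE1 probe 2 read -5.96, -5.45 and -4.76 in sham and -4.01, -4.48 and -4.49 in ligated arteries. It did not overlap, though all 6 spots were not well above background. CCNE1 probe 3 ran from -6.23 to -3.83 over the 6 arrays, with overlap, and was well above background on 1 array, ligated 2. The 2 CCNE1 probes that share bases thus did not separate the groups alike.

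CCNE2 was not well above background on any array. CCNE2 probe 1 read -6.25, -6.27 and -6.87 in sham and -4.88, -5.95 and -4.39 in ligated arteries, without overlap. CCNE2 probe 3 read -6.15, -6.18 and -6.82 in sham and -6.03, -5.27 and -4.79 in ligated arteries, also without overlap. CCNE2 probe 2, between them on the transcript, overlapped, at -6.91 to -6.35 in sham and -6.72 to -5.87 in ligated arteries. The CDC6 probe read -6.13, -6.25 and -4.60 in sham and -4.15, -4.49 and -4.35 in ligated arteries. The CDC6 groups did not overlap, the sham 3 array lay close to the ligated values, and no spot was well above background. For these 7 probes no fold is given. With no filter on dim probes limma gave adjusted p-values of 0.158 for CCNE1, 0.141 for CCNE2 and 0.172 for CDC6. Each gene was read there on its brightest probe, which was probe 2 for CCNE1 and probe 1 for CCNE2. On these probes each gene was higher in ligated arteries at an unadjusted p under 0.05, with spots that were not well above background. The groups overlapped on CCNE1 probes 1 and 3 and on CCNE2 probe 2.

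Genes around the members were read from 8 lists of 147 genes, of which 94 were tested, and 7 of the lists are described here. Of the tested genes 14 rose and 4 fell, 19.1% against 8.88% of all tested genes. These include BRCA1 and ORC2, each well above background in 1 group only. With only probes well above background on all 6 arrays 14 of 85 listed genes rose and 3 fell. In the whole series 450 of 6684 genes rose there and 258 fell. The 18 calls became 7 without sham 3 and 8 with sham 2 and sham 3 averaged. Calls over all 7576 tested genes went from 673 to 166 and 185 in these fits. The listed calls became 9 without sham 2, 10 without ligated 1, 8 without ligated 2 and 11 without ligated 3. Over all tested genes these fits called 187, 359, 226 and 644. Limma called 0 listed genes with normexp at an offset of 50 (6 at an unadjusted p under 0.05), and 0 genes in all. The CDK inhibitors other than p21 had 1 call. CDKN3, named as an inhibitor but a phosphatase that acts on CDK2, rose by 1.22 ± 0.23 (SE; limma adjusted p = 0.0275), and all 3 of its tested probes passed. Its log2 signal was 0.74, 1.21 and 1.34 in sham and 2.12, 2.5 and 2.34 in ligated arteries. That call held without sham 1 (0.0448) and ended without each other array, at adjusted p from 0.0538 without ligated 3 to 0.0993 without sham 2, and at 0.0845 with sham 2 and sham 3 averaged. CDKN1B, which encodes p27, the inhibitor of quiescent cells, read 1.92, 2.48 and 2.43 in sham and 1.51, 1.31 and 1.61 in ligated arteries. These groups did not overlap, but the change of -0.80 ± 0.22 was not past the threshold (adjusted p = 0.0771). It passed in 5 alternatives: without sham 1 (adjusted p = 0.0461), with normexp fitted without high-background spots (0.0404), with median centring (0.0435), with trend and robust variances (0.0485) and with array weights (0.0131). With sham 2 and sham 3 averaged the adjusted p was 0.238. Of the 4 tested genes in this list 1 rose and 0 fell, where 6.2% of all tested genes rose and 2.68% fell. At an unadjusted p under 0.05 limma had 2 higher and 2 lower. The median log2 change was -0.019 against 0.0051 over all tested genes.

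BTG2 and GADD45A, a pair of growth arrest genes, were not past the threshold. BTG2, an antiproliferative gene, read 5.25, 5.05 and 5.18 in sham and 5.15, 4.59 and 5.02 in ligated arteries, with overlap. GADD45A, a stress-induced gene whose product binds p21 and PCNA, read 3.76, 3.76 and 3.91 in sham and 4.44, 4.21 and 4.57 in ligated arteries. The GADD45A groups did not overlap, and its change of 0.60 ± 0.19 (SE) had a limma adjusted p of 0.0985. It passed with normexp fitted without high-background spots, where the change was 0.57 (adjusted p = 0.0457).

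Among G1 kinases and pocket proteins a pair of genes fell. Of 16 tested genes 2 fell and 0 rose, with 1 higher at an unadjusted p under 0.05 in limma. Among all tested genes 2.68% fell and 6.2% rose. The probe of CCND2 is the cyclin D probe above and is not counted again here. RBL2, which encodes p130, the pocket protein that represses E2F targets in quiescent cells, fell by 1.05 ± 0.22 on the log2 scale (SE; adjusted p = 0.0356). It read -0.79, -0.35 and -0.46 in sham and -1.46, -1.83 and -1.45 in ligated arteries, and 2 of its 5 tested probes passed. TFDP2, a DP partner of E2F factors, fell by 0.85 ± 0.20 (adjusted p = 0.0487), from 1.57, 1.33 and 1.33 to 0.33, 0.60 and 0.74. The RBL2 call held without sham 1 (0.0374) and ended without each other array, up to 0.146 without sham 3. The TFDP2 call ended without any 1 of the 6 arrays, with adjusted p from 0.0539 without ligated 3 to 0.157 without sham 3. With sham 2 and sham 3 averaged the adjusted p was 0.140 for RBL2 and 0.15 for TFDP2, and with normexp fitted without high-background spots the RBL2 change was -0.61 (adjusted p = 0.0543). CCND3, another cyclin D gene, and the cyclin D partners CDK4 and CDK6 were not past the threshold. CCND3 changed by 0.36 (adjusted p = 0.404), CDK4 by 0.19 (0.717) and CDK6 by 0.23 (0.526), and the sign for CDK4 turned with median centring (-0.0081) and without sham 2 (-0.015). The median of the list was -0.011.

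Of 11 tested genes for the turnover of cyclins and inhibitors only CKS2 passed. That is 9.09% of the list, close to the 8.88% of all tested genes that were called. CKS2 encodes a small subunit that docks CDKs on their substrates. It rose 4.29-fold, from 0.22, 0.74 and 0.84 to 2.42, 2.91 and 2.77, and all 5 of its probes passed (limma adjusted p = 0.00701). Of the rest, 10 were not past the threshold, and the list median was 0.16.

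Genes of origin licensing, the step that CDC6 serves, rose in part. MCM6 and MCM4, subunits of the replicative helicase that CDC6 helps to load, both rose. MCM6 read -0.59, -0.66 and -0.48 in sham and 1.11, 1.34 and 0.89 in ligated arteries, a 3.23-fold rise (limma adjusted p = 0.00672). MCM4 read -2.17, -2.48 and -2.32 in sham and -0.90, -0.75 and -0.88 in ligated arteries, a 2.79-fold rise (adjusted p = 0.00763). All tested probes of both genes passed, and both calls held without any 1 array. ORC6, a subunit of the origin recognition complex, rose by 1.47 ± 0.28 (adjusted p = 0.0290). That call held without sham 1 (0.0349) and ended without each other array, with adjusted p up to 0.104 without sham 3. It was 0.0713 with sham 2 and sham 3 averaged, and with normexp fitted without high-background spots the change was 0.59 (adjusted p = 0.0507). ORC2, another subunit, was well above background on the 3 sham arrays and not well above background on the ligated arrays. It thus entered the test through its sham arrays only. With the background subtraction of the processed signal it was at least 1.35-fold lower. Limma called it on a change of -0.99 (adjusted p = 0.0302), fitted with the ligated spots that were not well above background. That call ended without any 1 array (adjusted p up to 0.135 without sham 3) and with sham 2 and sham 3 averaged (0.114). With normexp fitted without high-background spots the change was -0.070 (adjusted p = 0.781), and with normexp at an offset of 50 the sign turned, to 0.52. The bound sets each ligated array at the lowest signal called well above background there, or at the probe's own signal where that is higher. Of 13 tested genes 3 rose and 1 fell, where 6.2% of all tested genes rose and 2.68% fell. The median change was 0.39, also with ORC2 at its bound. With only probes well above background on all 6 arrays ORC2 was not tested, and 3 of 11 genes rose and 0 fell. Limma had 5 higher and 3 lower at an unadjusted p under 0.05.

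S phase genes that E2F factors are known to switch on held the most calls of the 8 lists. Of 15 tested genes 7 rose (46.7%) and 0 fell, where 6.2% of all tested genes rose. At an unadjusted p under 0.05 limma had 9 higher and 0 lower. The 7 include BRCA1, which entered the test through its ligated arrays only. Under the stricter filter, which asked for a clear signal in each of the 6 samples, BRCA1 was not tested. There 6 of 14 genes in the list rose and 0 fell, against 450 of 6684 genes that rose in the whole series. CCNA2, the cyclin of S phase and G2, read -1.46, -1.31 and -1.60 in sham and 0.28, 0.57 and 0.66 in ligated arteries, a 3.89-fold rise (adjusted p = 0.00456). POLE, the catalytic subunit of the leading-strand polymerase, rose 5.75-fold, from -3.82, -3.12 and -3.11 to -0.92, -0.94 and -0.62 (adjusted p = 0.00484). In both genes every ligated array lay above every sham array and all tested probes passed.

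RRM2, TK1, TYMS and BRCA1 also passed. RRM2, the regulated subunit of ribonucleotide reductase, rose 5.30-fold, TK1, thymidine kinase, 2.83-fold, and TYMS, thymidylate synthase, 2.48-fold. BRCA1, a repair factor, was well above background on the 3 ligated arrays and on 0 of the sham arrays, and with the processed signal it was at least 3.45-fold higher in ligated arteries. The BRCA1 change was 2.32 as reported, 0.62 (adjusted p = 0.0575) with normexp fitted without high-background spots and 0.76 with normexp at an offset of 50. The median change of the list was 0.95, also with BRCA1 at its bound, against 0.0051 over all tested genes. The calls of CCNA2, POLE and RRM2 held without any 1 array. That of BRCA1 ended without sham 3 (adjusted p = 0.0536), that of TK1 without sham 3 (0.0976), ligated 1 (0.0604) and ligated 2 (0.0659), and that of TYMS without every array but sham 1 (up to 0.124 without sham 2). With sham 2 and sham 3 averaged the adjusted p was 0.0622 for TK1 and 0.119 for TYMS. With normexp fitted without high-background spots the changes of POLE and RRM2 were 1.18 and 1.48, against 2.52 and 2.41 as reported, and both passed. The number that rose was 4 without sham 3 and 5 with sham 2 and sham 3 averaged. Of all 7576 tested genes 141 and 157 rose in these fits, against 470 as reported.

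**Figure D3:**
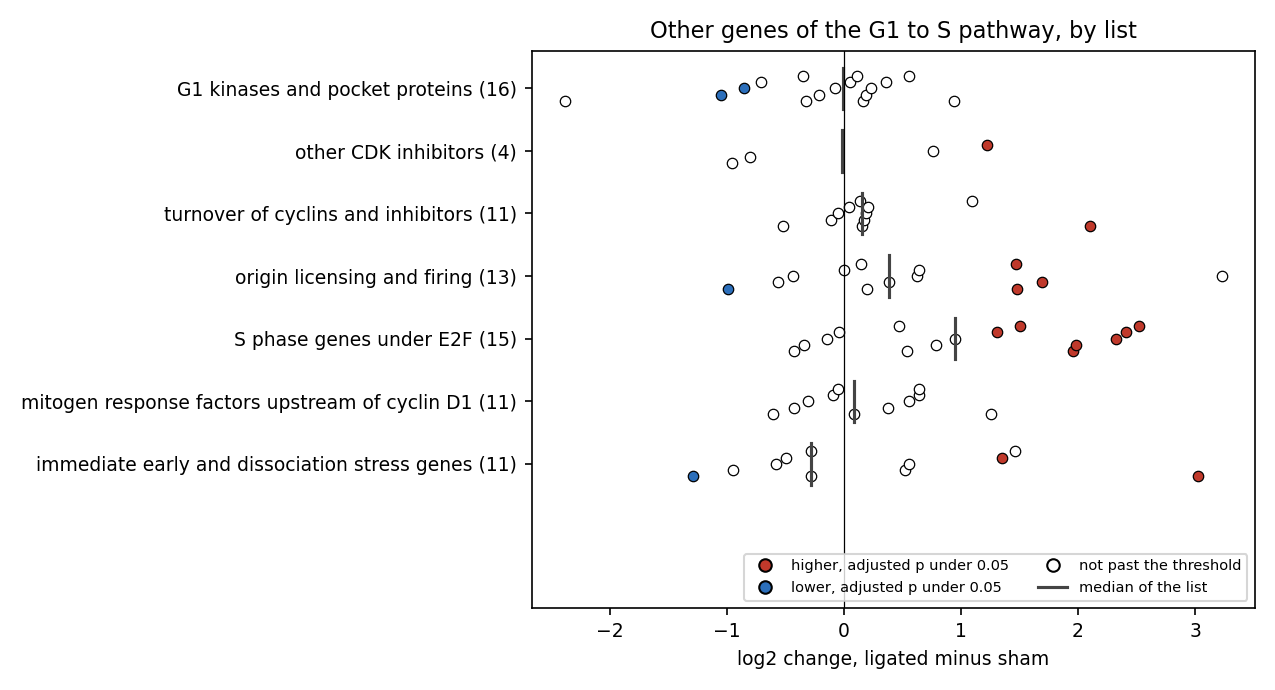
Log2 change (ligated minus sham, horizontal axis) of the 81 tested genes of 7 lists, by list with the number tested in brackets, where each point is 1 gene on its brightest tested probe and the short vertical line is the list's median. Red genes rose and blue genes fell at an adjusted p under 0.05. The 7 red points of the S phase list lie between 1.31 and 2.52, while the mitogen list holds none.

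Genes upstream of the cyclin D promoter were not past the threshold. In the list of mitogen response factors 11 of 19 genes were tested. In limma 0 rose and 0 fell, where 8.88% of all tested genes were called. At an unadjusted p under 0.05 there were 0 higher and 1 lower. JUN, a subunit of AP-1, read 4.66, 4.53 and 4.59 in sham and 5.00, 4.17 and 3.70 in ligated arteries, with overlap. STAT3, a transcription factor of cytokine signalling, read 1.77, 1.21 and 1.20 in sham and 2.68, 1.66 and 1.78 in ligated arteries, also with overlap. The list median was 0.089.

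Immediate early and dissociation stress genes, which the enzymatic release of cells can induce, moved in both directions. DUSP1, a phosphatase of MAP kinases, rose by 3.03 ± 0.70 (SE; limma adjusted p = 0.0484), from 0.30, 1.13 and 0.97 to 5.43, 3.44 and 2.61. IER3, an early response gene, rose by 1.35 ± 0.29 (adjusted p = 0.0395). NR4A2, an orphan nuclear receptor of the early response, fell by 1.29 ± 0.29 on the log2 scale (adjusted p = 0.0431). The DUSP1 call ended without sham 1 (0.0896), sham 2 (0.122), sham 3 (0.142) and ligated 2 (0.111). The call of IER3 held only without sham 1 (0.0135) and that of NR4A2 only without ligated 1 (0.0267), with adjusted p up to 0.143 and 0.155 without other arrays. With sham 2 and sham 3 averaged the adjusted p was 0.130 for DUSP1, 0.138 for IER3 and 0.149 for NR4A2. Of 11 tested genes 2 rose and 1 fell, where 6.2% of all tested genes rose and 2.68% fell, and the list median was -0.28. CDKN1A is itself an early response gene in many cells, and the part of tissue handling in its rise was not tested.

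The smooth muscle markers SMTN and DES fell in the ligated preparations (limma adjusted p = 0.00794 and 0.0399), and 1 of the 2 tested DES probes passed. The summed signal of the list, in multiples of the array's 75th percentile, ran from 1313 to 2138 in sham and from 487 to 1088 in ligated arteries, without overlap. Of 9 tested markers of 10 in the list, 2 fell, 0 rose and 7 were not past the threshold, ACTA2 among them (adjusted p = 0.310), and the median log2 change was -1.11. MYLK, the myosin light chain kinase and the brightest of them, had a change of -1.38 (adjusted p = 0.0648). Fewer cells of a type and less RNA per cell cannot be told apart in these samples, nor can a share of other cells that carry CDKN1A or S phase transcripts. Of 7 tested fibroblast and meninges markers of 10, LUM and COL14A1 rose (limma adjusted p = 0.00233 and 0.0346) and 0 fell. DCN was not called on its brightest probe (adjusted p = 0.325), though 4 of its 6 tested probes passed as higher. The summed level of the list overlapped, at 277 to 354 in sham and 255 to 353 in ligated arteries.

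The other marker lists held no call in limma on the brightest probe of each gene. The 5 tested endothelial markers summed to 51.9 to 105 in sham and 55.6 to 141 in ligated arteries, and KDR and ROBO4 were not tested for low signal. The 5 tested macrophage markers summed to 8.85 to 19.1 and 8.45 to 32.2, with MARCO too dim. The 7 lymphocyte markers summed to 0.828 to 6.39 and 0.760 to 3.96, and the 5 neutrophil markers to 1.18 to 3.94 and 2.64 to 6.46. The 3 erythroid markers ran from 189 to 389 in sham, and summed to 28.5, 31.4 and 668 on the ligated arrays, where ligated 3 stood apart. Ligated 3 also had the highest macrophage, lymphocyte and neutrophil sums of its group. In the sham group, sham 1 had the lowest macrophage, lymphocyte and erythroid sums and the highest neutrophil sum. Its lymphocyte sum was 0.828, against 6.30 on sham 2 and 6.39 on sham 3. Of the neuron list only SYT1 was tested and of the glia list only S100B, and GFAP, AQP4 and SOX10 were too dim. On their brightest probes SYT1 and S100B were not called (limma adjusted p = 0.184 and 0.0546). Still, 1 of 3 tested SYT1 probes and 3 of 5 tested S100B probes passed as lower. The brightest SYT1 probe was not well above background on the ligated arrays. The part of cell makeup in the rise of CDKN1A was not tested.

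The genes whose pattern over the 6 arrays was most like that of CDKN1A were IL6ST, CASK and AHR. Profiles were centred on each gene's own mean and ranked by root mean square difference over 7565 genes. IL6ST, the shared receptor subunit of interleukin 6 family cytokines, differed by 0.065 and had a log2 change of 0.87. Its signal was 2.10, 2.10 and 1.97 in sham and 3.14, 2.78 and 2.84 in ligated arteries. CASK, a scaffold kinase of cell junctions, differed by 0.081 with a change of 0.97, and AHR, a ligand-activated transcription factor, by 0.084 with a change of 0.88.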

How the data were processed

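Labelled RNA of 6 arrays was read with Agilent Feature Extraction 10.7, per the submitters' processing notes. Per the file headers, the processed signal is a background-subtracted intensity with no scaling between arrays, and the mean and local background signals are intensity values as scanned. The spot marks deposited by the authors (well above background, outlier) are flags of 0 or 1. The deposited value table holds log2 values with equal column medians near 5.05, and its scaling is not stated by the sources used here.

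Outlier spots were left out (2 to 19 per array), signals were taken to log2, and each array's 75th percentile was subtracted. Probes well above background on at least 3 of 6 arrays were tested, 27410 of 43603. Groups were compared with limma 3.58.1 (R 4.3.3, lmFit and eBayes, two-sided). P-values were adjusted by Benjamini-Hochberg across the 27410 probes, and a call is an adjusted p under 0.05. The code was tested on simulated data. The brightest tested probe stood for a gene. Of all probes, 22594 had 1 symbol through the RefSeq table of mOryCun1.1, covering 10023 symbols, 21 had several and 20988 had none.

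The members, gene lists, marker lists and alternatives were chosen with earlier results of these data known. Named genes were all members, from each list up to 3 called genes per direction with the smallest p or, with none called, the 2 brightest, the brightest gene of a marker list, and the 3 most like CDKN1A. CDKN1B, BTG2, GADD45A, CCND3, CDK4 and CDK6 were added after values were seen, as were the other called genes of the S phase list and the called markers. One gene list and a few single genes are not reported here. The replicate numbers were not taken to pair samples, since the correlations of same-numbered deviations were 0.43, -0.57 and 0.58. Mean signals with local background were used for normexp with an offset of 50. The within-array difference was tested by exact permutation (scipy 1.17.1).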

Additional observations from a re-analysis of the deposited data

How the results depend on the processing

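The 19 alternatives varied the background correction, the scaling, the filter, the source of the values, the variance model, array weights, a block for scan day or replicate number, the arrays kept and the probe per gene. With normexp at an offset of 50 limma called 0 probes (615 at an unadjusted p under 0.05), 0 members (0) and 0 listed genes (6), and it moved the median of all tested probes from 0.0076 to 0.21. With high-background spots left out of normexp 2378 probes passed. Median centring called 0 members (1 at an unadjusted p under 0.05), with a CDKN1A change of 0.67 around a median of -0.19 over all tested probes. It gave 1149 higher and 1052 lower probes (52.2% higher), where the reported fit gave 1564 and 726 (68.3%), and normexp without high-background spots gave 56.3% higher. Counts of called probes, members and listed genes were 1524, 0 and 11 with no filter, 1295, 0 and 8 with the replicate block, 552, 0 and 7 with scan day as a block (the same fit as without sham 3), and 595, 0 and 8 with sham 2 and sham 3 averaged. In each of these 4 fits CDKN1A had an unadjusted p under 0.05, and with no filter CCNE1, CCNE2 and CDC6 did as well on their brightest probes. Array weights called 6097 probes and 30 listed genes, and the mean of all tested probes called 1274. Without 1 array the counts ran from 552 to 2269 probes and from 7 to 16 listed genes, with 0 members throughout and CDKN1A at an unadjusted p under 0.05 in all 6. The replicate block rests on shared numbers only, and sham 1 correlated best with ligated 2 (0.55). The cyclin D probe turned to 0.31 with quantile normalization and 0.31 with the deposited table, and without 1 array it ran from -0.14 to 0.082, with 0.056 without ligated 2. ORC2 turned to 0.52 with normexp, and BTG2 to 0.017 with quantile normalization and 0.018 with the deposited table. CDK4 turned to -0.0081 with median centring, and without 1 array it ran from -0.015 to 0.51. The within-array difference was 0.66 with normexp, where the groups overlapped (exact permutation test, p = 0.4), and 0.83 to 1.06 without 1 array. The cause of these shifts was not tested. Signal over background limits the cyclin E and CDC6 probes.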
